A study of Homo sapiens with 6 samples.

Results

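The sites described here were NME2 peaks that were called in A549 cells before NME2 was induced and had no counterpart in the list called after induction. They were chosen by 3 measured or positional values. A site had to lie on an autosome, the gap to the nearest peak of the induced list had to exceed 1000 bp, and its 1 Mb bin could hold no more than 10 peaks of the list made before induction (the endogenous list). This left 1529 of the 2541 endogenous peaks, which is 60.2% (Wilson 95% interval 58.3 to 62.1%), or 63.4% (61.4 to 65.3%) of the 2413 endogenous peaks on autosomes. These sites are called absent sites below. The gap and the crowding of the bins were used to choose them and are therefore described without a test, while width and running number in the list were not used.

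A549 is a human cell line from a lung carcinoma. NME2 occupancy had been mapped in it by chromatin immunoprecipitation and sequencing, each condition with 2 libraries from the NME2 pulldown and 1 from IgG, at 48 h. The cells before induction were not transfected, and their own NME2 was pulled down with the anti-nm23-h2 antibody L-16. The induced cells were transfected with pcDNA3-NME2 carrying a Myc tag and were pulled down with a mouse monoclonal anti-c-Myc antibody. The antibody against the tag does not recognize untagged NME2. Absence from the induced list therefore means that no peak was called there with the anti-c-Myc antibody. Whether some induced peaks stem from the c-Myc protein of the cells and not from tagged NME2 was not tested. The change of antibody, the transfection and the change in NME2 level cannot be told apart. The labels give goat as the source of the IgG control after induction, although the antibody against the tag is from mouse, and mouse as that before induction. Each condition was represented by 1 peak list that carries no scores, read counts or replicate values. The lists also hold more peaks than the study counted, so some of the absent sites may lie outside its final peak sets. Depth at a peak is unknown, and the spread between libraries could not be estimated. The intervals printed below cover the counting of peaks only, and neighbouring peaks are not independent of each other.

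NME2, also called NM23-H2 or nucleoside diphosphate kinase B, belongs to a family of enzymes that pass phosphate groups between nucleotides. It is also known as a suppressor of metastasis and as a DNA-binding protein, for which the nuclease-hypersensitive element of the MYC promoter, a G-rich sequence able to fold into a G-quadruplex, is the best studied site. A peak in an immunoprecipitation marks chromatin that was recovered with the antibody, directly or through partners of the protein. No genome or gene models of the hg18 build were used here, so sites are identified by position alone, and their sequences and genes were not analysed.

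All endogenous peaks could be accounted for. Of the whole endogenous list, 1789 of 2541 peaks (70.4%) had no induced peak within 1000 bp, and of the whole induced list 10753 of 11545 peaks (93.1%) had no endogenous peak within the same distance. On autosomes, 724 endogenous peaks outside crowded bins had an induced peak within 1000 bp, and these are called found-again peaks below. A further 160 peaks lay in 6 crowded bins with more than 10 endogenous peaks, and 159 of them also had no induced peak within 1000 bp. The remaining 128 endogenous peaks lay on chromosomes X and Y, where 101 had no induced peak within 1000 bp. Without the crowded bins, absent sites made up 67.9% (65.9 to 69.8%) of the autosomal endogenous peaks.

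The limit of 1000 bp fell in a sparse part of the gap distribution. Of the 724 found-again peaks, 518 overlapped or touched an induced peak, 72 had a gap of at most 50 bp and 55 had a gap between 50 and 100 bp. A further 26 had a gap between 100 and 200 bp, 15 between 200 and 300 bp and 23 between 300 and 500 bp. Around the limit there were 15 endogenous peaks between 500 and 1000 bp, 14 between 1000 and 1500 bp and 12 between 1500 and 2000 bp. The absent sites closest to the limit were chr3:41204758-41204785 with a gap of 1063 bp, chr2:218564574-218564601 with 1082 bp and chr9:100692709-100692920 with 1087 bp. The peaks just on the other side were chr12:23995511-23995708 with a gap of 978 bp, chr7:24433230-24433265 with 931 bp and chr4:164912133-164912182 with 865 bp. Few peaks were thus close enough to the limit to change sides with a small shift of it.

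Most absent sites lay far from any induced peak. The median gap was 84.1 kb (order-statistic 95% interval 80.4 to 90.9 kb), with quartiles of 35.7 and 182 kb. An induced peak was found within 10 kb of 131 absent sites (8.57%), within 100 kb of 843 (55.1%) and within 500 kb of 1464 (95.7%). The most populated classes were 50 to 100 kb with 340 sites and 100 to 200 kb with 345 sites. Only 18 sites (1.18%) were farther than 1000 kb. The nearest induced peak lay at the higher coordinate for 761 absent sites (49.8%, interval 47.3 to 52.3%), an interval that includes an even split. Induced peaks flanked 1507 of the 1529 sites on both sides, and the stretch without induced peaks around such a site had a median length of 412 kb. The median over all stretches between neighbouring induced autosomal peaks was 161 kb (155 to 166 kb). A longer stretch has more room for a site, so these medians are not a like comparison.

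**Figure D1:**
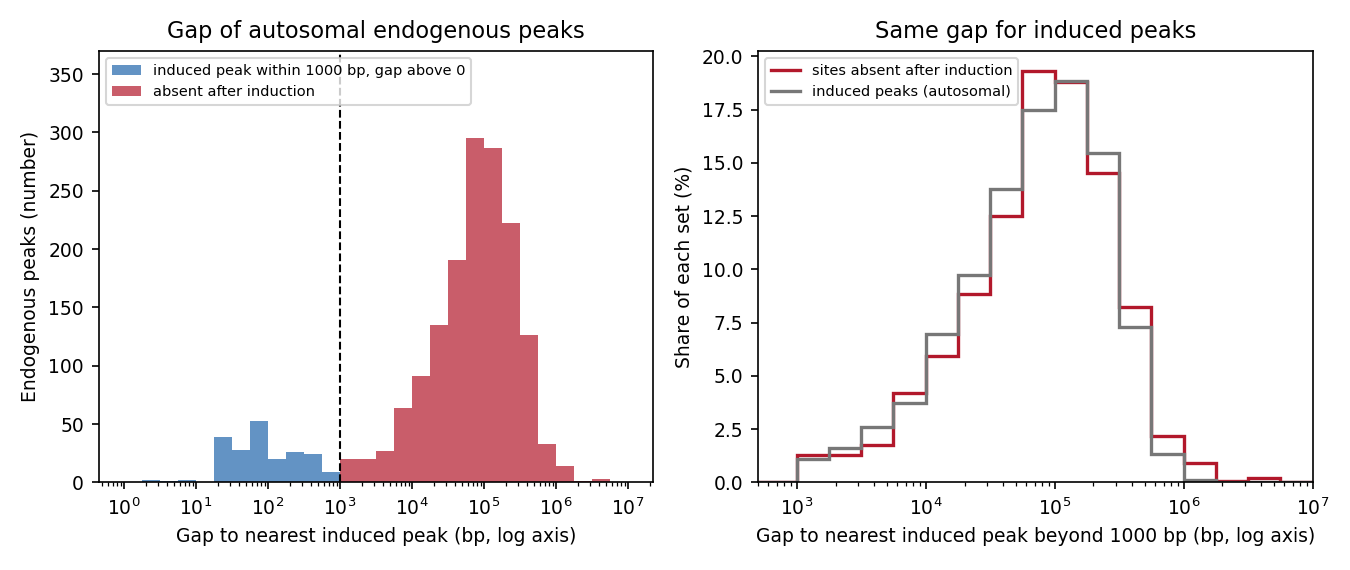
Left, number of autosomal endogenous peaks outside crowded bins by gap to the nearest induced peak (bp, log axis); found-again peaks with a gap of 0 are not drawn and the dashed line marks 1000 bp. Right, share of the absent sites and of the autosomal induced peaks by gap to the nearest induced peak beyond 1000 bp; both outlines peak near 100 kb, with medians of 84.1 and 79.8 kb.

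The same gap was measured from the other peaks, counting only induced peaks beyond 1000 bp. The sets had been chosen in opposite ways on this gap, since absent sites have no induced peak within 1000 bp and found-again peaks have at least 1, so the values are given side by side as a description. The median was 79.8 kb (77.4 to 82.2 kb) for the 10901 autosomal induced peaks and 69.4 kb (61.3 to 78.7 kb) for the found-again peaks. An induced peak beyond 1000 bp was within 50 kb of 32.9% (30.6 to 35.3%) of absent sites, 39.8% (36.3 to 43.4%) of found-again peaks and 36.2% (35.3 to 37.1%) of induced peaks. Within 100 kb the shares were 55.1% (52.6 to 57.6%), 59.5% (55.9 to 63.0%) and 57.0% (56.1 to 57.9%). The 1336 different induced peaks that were nearest to an absent site had a median width of 92.5 bp, and 47.5% (44.8 to 50.1%) were wider than 100 bp, beside 92 bp and 46.8% for all autosomal induced peaks.

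The 5 sites farthest from any induced peak lay on chromosomes 21, 22 and 11, at the edge of, or within the same group as a site at the edge of, the longest stretch of their chromosome without peaks of either list. This was not so for all distant sites, since chr8:146200705-146200733 and chr8:146139853-146139916, 1271 and 1210.3 kb from an induced peak, were the last endogenous peaks of chromosome 8. On chromosome 21 the 3 farthest sites were chr21:9822765-9823075, chr21:9827146-9827401 and chr21:9831397-9831459, with gaps of 3476, 3472 and 3468 kb to the induced peak chr21:13299465-13299676. Their widths were 311, 256 and 63 bp, and the distance from each to its nearest endogenous peak was 4.07 kb for the first and 3.995 kb for the others. They were the first peaks of either list on that chromosome. The fourth, chr22:14857860-14858057, was 198 bp wide and lay 2400.5 kb from the nearest other endogenous peak and 1972 kb from the nearest induced peak. It was followed by chr11:51449637-51449668, a site of 32 bp with a gap of 1599 kb, which belonged to a group of 4 absent sites within 13.6 kb.

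Absent sites were mostly narrow. Their median width was 30 bp (29 to 36 bp), with quartiles of 28 and 78 bp, and 764 sites, 49.97% (47.5 to 52.5%), were at most 29 bp wide. Widths of exactly 28 bp (511 sites) and 29 bp (253 sites) were the commonest, and among wider sites 73 were 198 bp wide, 31 were 199 bp and 23 were 200 bp. No autosomal peak of either list was narrower than 28 bp, so the commonest width was also the floor of both lists. Between these modes, 419 sites (27.4%, interval 25.2 to 29.7%) measured 30 to 100 bp, and 346 (22.6%, 20.6 to 24.8%) were wider than 100 bp.

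**Figure D2:**
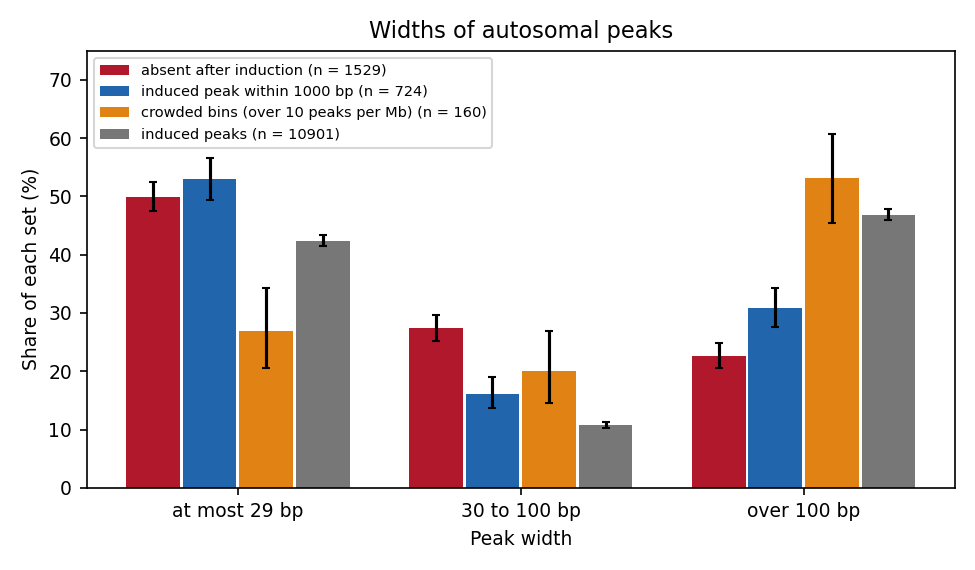
Share of each set of autosomal peaks (%) in 3 classes of width, with Wilson 95% intervals as error bars. Peaks of 30 to 100 bp made up 27.4% of the absent sites, 16.2% of the found-again peaks and 10.8% of the induced peaks, peaks over 100 bp made up 22.6%, 30.8% and 46.8%, and the 160 peaks of the crowded bins are drawn as a further set, with 53.1% over 100 bp.

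Widths of 30 to 100 bp were commoner among absent sites than among found-again peaks, of which 16.2% (13.7 to 19.02%) fell in that class, and than among autosomal induced peaks, with 10.8% (10.2 to 11.4%). Peaks wider than 100 bp were less common, with 30.8% (27.5 to 34.3%) of found-again peaks and 46.8% (45.9 to 47.8%) of induced peaks. For 30 to 100 bp the intervals over the whole list did not overlap, also with no cap on crowded bins (26.7%, 24.7 to 28.9%, of absent and 16.1%, 13.6 to 18.99%, of found-again peaks). By point value this depended on the part of the list, by deciles of running number defined and grouped below. In deciles 2 to 7, 86.1% of endogenous peaks of 30 to 100 bp were absent, beside 79.8% of narrower and 69.3% of wider peaks. In deciles 1 and 8 to 10 the order turned, with 38.9% beside 49.9% and 51.6%, and the intervals overlapped. For peaks over 100 bp the intervals of absent and found-again peaks were apart with the cap and overlapped without it (25.5%, 23.5 to 27.7%, and 30.8%, 27.5 to 34.2%). The shares of peaks of at most 29 bp, 49.97% of absent sites and 53.0% (49.4 to 56.6%) of found-again peaks, had overlapping intervals, as had the medians of 30 and 29 bp. Seen from the width, 81.7% (76.7 to 85.8%) of the endogenous peaks of 51 to 100 bp outside crowded bins were absent after induction, beside 66.5% (63.0 to 69.7%) of those of 28 bp and 54.9% (46.7 to 62.8%) of those of 101 to 150 bp. In wider classes the share was 60.8% (55.1 to 66.2%) at 151 to 200 bp and 73.9% (59.7 to 84.4%) above 250 bp, with 34 absent and 12 found-again peaks. A wider peak has slightly more room to come within 1000 bp of another, by the difference in width alone. No test over samples was possible, since each condition had 1 list.

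Width was also compared between distance classes. Between 10 and 200 kb, 17.6 to 22.4% of the absent sites in a distance class were wider than 100 bp. The shares were higher at both extremes, 34.6% (19.4 to 53.8%) of the 26 sites within 2 kb and 38.9% (20.3 to 61.4%) of the 18 sites beyond 1000 kb, but these intervals include the value for all absent sites. The 5 widest absent sites were chr2:91632782-91633538 with 757 bp, chr5:134290820-134291456 with 637 bp, chr2:2626832-2627337 with 506 bp, chr1:121185814-121186224 with 411 bp and chr6:58885872-58886279 with 408 bp. Their gaps to the nearest induced peak were 436, 206, 142, 187 and 1011 kb. The sites on chromosomes 1 and 6 and the widest one lay in bins with at least 6 absent sites, described further below, and the other 2 had no other endogenous peak within 10 kb.

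The running number that precedes each peak in the endogenous list reached 3191, increased down the list and had 650 numbers missing. The sources used here do not say what it orders. No number was missing in the first 3 deciles (defined below), and between 62 and 139 were missing in each of the others. The share of peaks that were absent sites differed along the list. The numbers were split into 10 ranges of equal length, called deciles here. In the first decile (1 to 319) 137 of 305 autosomal peaks outside crowded bins were absent after induction, 44.9% (39.4 to 50.5%). The share was 79.3% (74.3 to 83.6%) in the second decile, 78.4% (73.0 to 82.9%) in the third, 72.1% (65.3 to 78.0%) in the fourth and 88.9% (84.1 to 92.4%) in the fifth (1277 to 1595). It was 84.8% (79.4 to 89.0%) in the sixth, 72.6% (66.0 to 78.3%) in the seventh and 57.0% (50.2 to 63.6%) in the eighth, and came to 46.3% (38.7 to 54.0%) in the ninth and 50.5% (43.6 to 57.4%) in the last. By number, absent sites were most frequent in the second and the third decile, with 230 and 210, beside 200 and 179 in the fifth and sixth. In classes chosen after seeing these values, the fifth and sixth deciles gave 86.9% (83.4 to 89.8%) and the first and last 3 gave 49.3% (46.0 to 52.6%). The medians of the running number, 1401 (1319 to 1442) for absent sites and 1532.5 (1228 to 1830) for found-again peaks, had overlapping intervals. The quartiles were farther apart for the latter, with 658 and 1986 for absent sites and 366 and 2562 for found-again peaks.

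**Figure D3:**
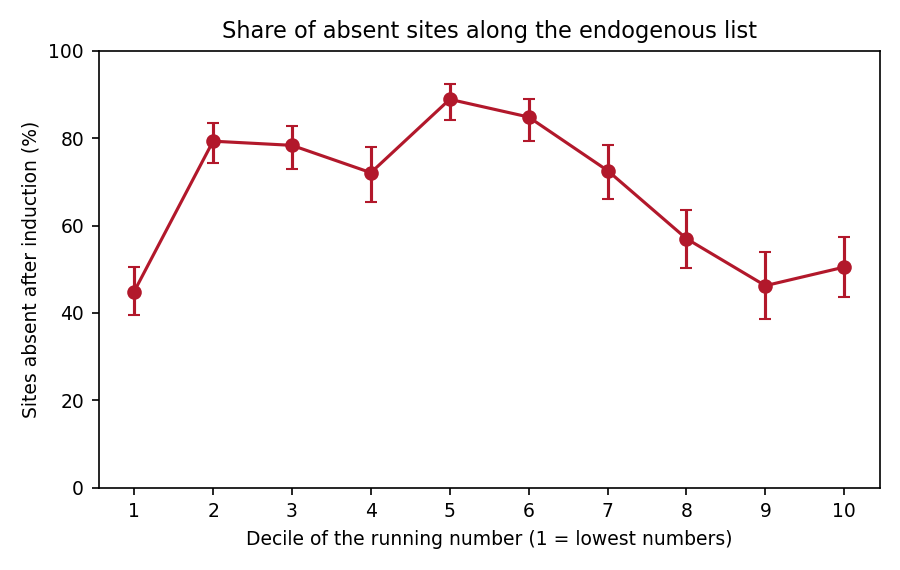
Share of autosomal endogenous peaks outside crowded bins that were absent after induction (%), by decile of the running number, with Wilson 95% intervals. The share was 44.9% in the first decile, 88.9% in the fifth and 50.5% in the last.

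The median gap of absent sites lay between 74.2 and 98.1 kb in the 10 deciles, with no steady rise or fall. The median width of absent sites was 53 bp in the fifth decile and 49 bp in the sixth, where 12.5 and 12.8% were wider than 100 bp, but 28 or 29 bp in the first 4 and last 2 deciles. By point value, peaks of 30 to 100 bp had the highest share of absent sites in the inner part of the list and the lowest at its ends. The intervals of all classes of width overlapped at the ends. In the inner part those of 30 to 100 bp and of narrower peaks just overlapped. Over the second to seventh deciles, 86.1% (82.6 to 89.0%) of peaks of 30 to 100 bp were absent after induction, 79.8% (76.5 to 82.7%) of narrower and 69.3% (63.8 to 74.2%) of wider peaks. In the first decile and the last 3, the shares were 38.9% (29.5 to 49.2%), 49.9% (45.6 to 54.2%) and 51.6% (45.7 to 57.5%). In each class of width the share was lower at the ends of the list than inside it. The deciles had been grouped after seeing their shares, and those at the ends were the ones with the lowest shares. A lower share there was therefore largely fixed in advance. The absent sites with the lowest running numbers, 14, 19, 20, 27 and 29, were chr7:141692543-141692570, chr5:163252310-163252337, chr13:27083276-27083304, chr18:74871997-74872024 and chr5:126140475-126140503. All 5 were 28 or 29 bp wide, and they lay 38.8, 57.7, 27.8, 48.7 and 101 kb from an induced peak.

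Absent sites and found-again peaks alike mostly lay far from other endogenous peaks. The median distance from an absent site to the nearest other endogenous peak was 400.3 kb (358 to 438 kb), with quartiles of 144 and 831 kb, and that to the nearest other absent site was 581 kb (527 to 626 kb). For found-again peaks the median distance to another endogenous peak was 327 kb (284 to 375 kb), an overlapping interval, and another endogenous peak lay within 1000 kb of 81.2% of absent sites and 82.2% of found-again peaks. Another endogenous peak lay within 1 kb of 41 absent sites, 2.68% (1.98 to 3.62%), and within 10 kb of 89, 5.82% (4.75 to 7.11%). For found-again peaks these shares were 7.46% (5.76 to 9.60%) and 10.8% (8.72 to 13.2%). The order of the sets depended on the rule, since the cap on crowded bins took out 159 peaks without an induced peak within 1000 bp and 1 with one. With no cap, the shares were 10.1% (8.78 to 11.7%) and 14.6% (13.0 to 16.4%) for autosomal peaks without an induced peak within 1000 bp and 7.45% (5.75 to 9.59%) and 10.8% (8.71 to 13.2%) for those with one, and the order turned. In the crowded bins themselves the median distance to the next endogenous peak was 0.318 kb.

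When absent sites within 10 kb of each other were joined, 1453 of them (95.03%) stayed single, and the other 76 formed 15 pairs and 10 longer groups. The largest group had 7 sites over 37.0 kb on chromosome 2 (91644549 to 91681505). Groups of 6 lay on chromosome 1, within 1.30 kb (121185574 to 121186872), and on chromosome 6, within 2.77 kb (58884212 to 58886982). A group of 5 lay on chromosome 18 within 6.24 kb (16766833 to 16773074). The bins of these last 3 groups held no induced peak, and the nearest one was 187, 1009 and 498 kb away. The groups on chromosomes 10, 11 and 21 also lay at least 343.55 kb from an induced peak, and 2 of the 10 groups lay close to one. A group of 4 on chromosome 18 (27425745 to 27432602) lay 5.78 kb from an induced peak in a bin with 4 of them, and a group of 3 near the start of the same chromosome (96610 to 99151) lay 1.43 kb from one, in a bin with 10 induced and 10 endogenous peaks. That bin was the one filled exactly to the cap.

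Neighbouring absent sites came within 1 kb of each other 25 times, with a median gap of 230 bp. In 19 of these pairs the wider site exceeded 100 bp, in 9 of them beside a site of at most 29 bp. The closest pair, chr18:16772618-16772862 and chr18:16772865-16773074, was separated by 2 bp. The next, chr2:47786116-47786314 and chr2:47786336-47786536, had widths of 199 and 201 bp, a gap of 21 bp and running numbers of 107 and 354. It lay 85.3 kb from the nearest induced peak. The third, chr6:58884703-58884881 and chr6:58884926-58884953, paired widths of 179 and 28 bp across 44 bp.

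Every autosome held absent sites, from 24 on chromosome 22 to 140 on chromosome 2. Per Mb between the first and last peak of either list, without the longest stretch free of peaks, they numbered from 0.466 on chromosome 14 to 0.832 on chromosome 21, with a median of 0.571. For each 100 induced peaks of a chromosome there were between 11.02 absent sites on chromosome 14 and 17.8 on chromosome 16. Across the 22 autosomes the numbers of absent sites and of induced peaks had a Pearson r of 0.970 and a Spearman rho of 0.962. These are descriptions of points that share chromosome length, and per Mb r was 0.657 and rho 0.588. The median gap to an induced peak ranged from 48.2 kb on chromosome 21, which had the densest induced peaks (5.32 per Mb), to 114 kb on chromosome 15.

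**Figure D4:**
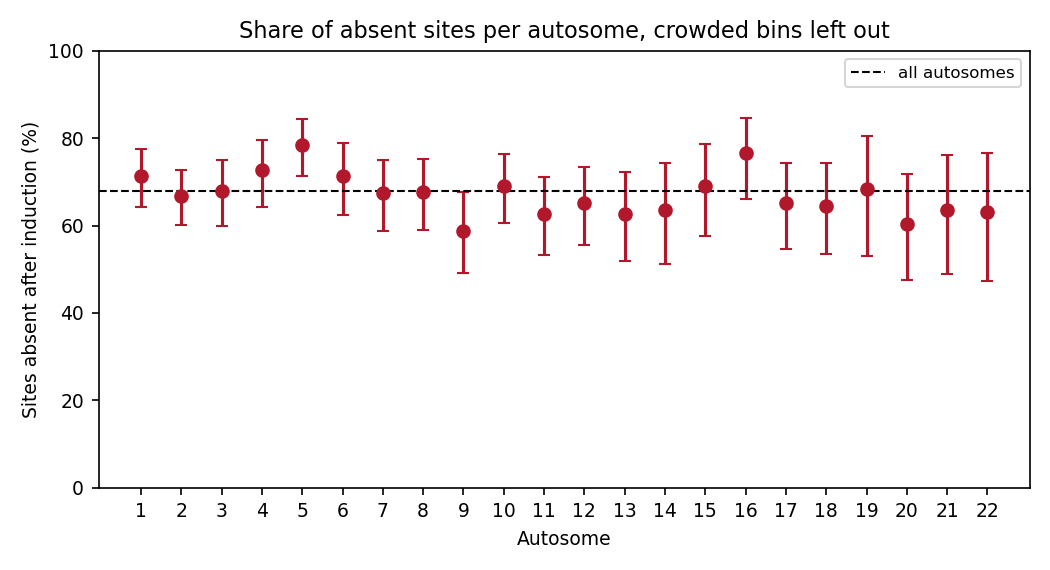
Share of endogenous peaks outside crowded bins that were absent after induction (%) on each autosome, with Wilson 95% intervals. The dashed line marks 67.9% for all autosomes, and the intervals of 20 of the 22 autosomes include it.

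Of all endogenous peaks on a chromosome, the share that were absent sites was highest on chromosome 5 (117 of 149, 78.5%, interval 71.3 to 84.4%), chromosome 6 (80 of 112, 71.4%, 62.5 to 79.0%) and chromosome 1 (127 of 178, 71.3%, 64.3 to 77.5%). It was lowest on chromosome 10 (87 of 175, 49.7%, 42.4 to 57.0%), chromosome 16 (59 of 118, or 50%, 41.1 to 58.9%) and chromosome 19 (28 of 53, 52.8%, 39.7 to 65.6%). The low shares went with the crowded bins, which hold 49, 41 and 12 peaks on these 3 chromosomes and are not counted as absent sites by the rule. Without them the shares were 69.0, 76.6 and 68.3%, and the range over autosomes ran from 58.7% on chromosome 9 (49.05 to 67.6%) to 78.5% on chromosome 5. The intervals of these 2 autosomes alone missed the pooled 67.9%. With neighbouring endogenous peaks within 100 kb counted as 1 cluster, 1320 of 1985 clusters (66.5%) held absent sites only, and the share ranged from 55.6 to 78.3% over the autosomes.

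Position along the chromosomes was measured from the outermost peaks and from the longest stretch without peaks. Within 2 Mb of the first or last peak of an autosome lay 107 absent sites, 6.998% (5.82 to 8.39%), beside 10.9% (8.84 to 13.4%) of found-again peaks, 4.30% (3.94 to 4.70%) of induced peaks and 3.15% of the span itself. The zone of 2 Mb beside the longest stretch free of peaks held 87 absent sites, 5.69% (4.64 to 6.97%), beside 2.21% (1.36 to 3.56%) of found-again peaks and 2.81% (2.51 to 3.13%) of induced peaks. The intervals of absent and found-again peaks were apart in both zones when every peak was counted, but groups of neighbouring sites carried much of this. With the peaks of a set within 100 kb of each other counted as 1, the shares were 6.63% (5.44 to 8.05%) of 1403 absent and 8.71% (6.80 to 11.1%) of 666 found-again clusters at the ends. Beside the longest stretch they were 3.28% (2.47 to 4.35%) and 2.25% (1.37 to 3.68%), and the intervals overlapped in both zones. All 160 peaks of the crowded bins, which belong to neither set, lay in the second zone. The ends and the stretches were read from the peaks themselves, so that absent sites can mark an edge of a zone, as on chromosomes 21 and 22, and the assembly gaps of hg18 were not examined. On both of these chromosomes the first peaks adjoin the longest stretch, so the same sites count in both zones. An end of the span need not be an end of the chromosome, since the first peak of chromosome 13 lay at 18048911.

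**Figure D5:**
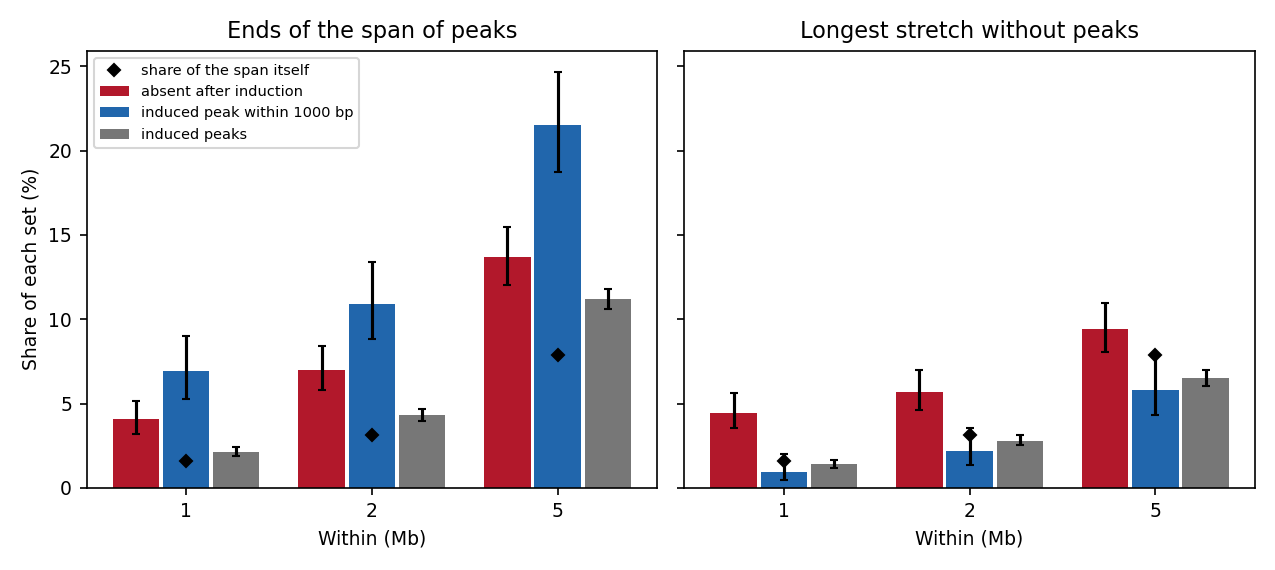
Share of absent sites, found-again peaks and autosomal induced peaks (%) within 1, 2 and 5 Mb of the first or last peak of a chromosome (left) and of its longest stretch without peaks (right), with Wilson 95% intervals; diamonds give the share of the span itself. Within 2 Mb, absent sites reached 6.998% at the ends and 5.69% beside the longest stretch, and found-again peaks 10.9% and 2.21%.

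The 1134 bins of 1 Mb that held absent sites mostly held 1 (829 bins) or 2 (245 bins). The fullest, with 8 absent sites each, were the bin from 91 to 92 Mb of chromosome 2 and that from 38 to 39 Mb of chromosome 10, followed by the bin from 121 to 122 Mb of chromosome 1 with 6, level with that from 58 to 59 Mb of chromosome 6. All endogenous peaks of these bins were absent sites, the induced peaks numbered 1, 1, 0 and 0, and each bin lay at the edge of the longest stretch without peaks of its chromosome. The bins just beyond the cap, with 11 endogenous peaks at 61 Mb of chromosome 7 and 12 at 32 Mb of chromosome 19, held no induced peak. Of the other crowded bins, those at 41 Mb of chromosome 10 and 44 Mb of chromosome 16 held none. Those at 48 and 49 Mb of chromosome 4 held 3 and 1. Without the 87 absent sites within 2 Mb of such a stretch, the share with another endogenous peak within 10 kb was 2.77% (2.04 to 3.76%) in place of 5.82%. The median gap to an induced peak was then 81.2 kb, and 21.4% were wider than 100 bp, beside 30.5% of the found-again peaks left by the same restriction. The bin of an absent site held a median of 4 induced peaks (quartiles 2 and 6), and only 66 absent sites (4.32%) had none in their bin.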

How the data were processed

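NME2 occupancy had been profiled in A549 cells by ChIP-seq, with 2 NME2 libraries and 1 IgG library per condition. According to the methods, the authors cut reads down to 24 bp and placed them on hg18 with MAQ, allowing up to 2 mismatches. CisGenome then found regions enriched against IgG (false discovery rate 10%), with refined boundaries and removal of regions seen on a single strand. Each line of the deposited lists holds a running number followed by chromosome, start (counted from 0) and end, and no other values. The lists were used as deposited and hold more peaks than the study counted. Which of these filters they had passed and how the replicates were combined are not given in the sources used here.

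Positions are printed counting from 1. The gap between peaks is the number of bases between their edges, and 0 where they overlap or touch. It equalled that from bedtools 2.31.1 for all 2413 autosomal endogenous peaks. Medians have order-statistic and shares Wilson 95% intervals (python 3.11.15, scipy 1.17.1). The procedures were tested on simulated data. No test over samples was possible. Sites were named by extreme gap, width, running number or spacing, by the share of absent sites per autosome and by the fullest bins. The members, the lists and these rules were chosen with earlier results of these data known. Classes of running number and width were chosen after seeing values.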

Additional observations from a re-analysis of the deposited data

How the results depend on the processing

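No paired analysis was possible because the lists hold no values for single replicates, which also kept replicates from being left out in turn. The lists carry no score, so a stricter list was approached only through the running number, whose meaning is not stated. For 12 results, 97 alternatives were computed, of which 73 stayed within the interval of the value reported, or within 1.5 times the count, and 24 moved. These are single values without a direction. Comparisons with found-again peaks did change: with no cap the order of the spacing shares turned and the intervals for widths over 100 bp overlapped. By point value, the higher share of absent sites among peaks of 30 to 100 bp was seen only in the inner deciles of the running number. At the ends of the list it turned, with overlapping intervals. The alternatives that leave out absent sites near the longest stretch or near another absent site, or count neighbouring sites once, were chosen after seeing the data.

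The share of autosomal endogenous peaks that were absent sites was 63.4%. It was 71.9% when only overlapping peaks counted as found again, 60.8% with a gap over 5000 bp and 57.9% with one over 10000 bp. It was 70.0% with no cap on crowded bins and 67.7% in the first 50% of the running numbers. Away from the longest stretch it was 67.1%, where peaks near the stretch were left out of both counts. Without sites within 10 kb of another absent site it was 60.2%, or 1453 of 2413 peaks. The sites left out stayed among the 2413, so this share could only fall. The first 50% of the running numbers held 914 absent sites. The median gap to an induced peak was 71.0 kb with only overlaps counted as found again, 97.9 kb with a gap over 10000 bp and 100.05 kb with no cap. In the first 50% of the running numbers, 53.5% of absent sites were at most 29 bp wide and 18.5% wider than 100 bp, and with no cap 25.5% were wider than 100 bp. With no cap the median distance to the nearest other endogenous peak was 330.03 kb. The share with another endogenous peak within 10 kb was 3.91% with a cap of 5, 14.6% with no cap, 2.77% away from the longest stretch and 0.895% without sites near another absent site. The last follows from leaving those sites out. At the ends of the span the share was 4.05% within 1 Mb and 13.7% within 5 Mb, and beside the longest stretch 4.45% and 9.42%, or 3.28% within 2 Mb with sites within 100 kb of each other counted once.

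Leaving out each autosome in turn moved none of 8 results. No autosome held more than 9.16% of the absent sites, so these values had little room to move. The number of absent sites ranged from 1389 to 1505, their share from 62.4 to 64.4%, the median gap from 83.6 to 84.9 kb, the median width from 29 to 32 bp, the share of at most 29 bp from 49.3 to 50.6%, the share over 100 bp from 22.2 to 23.2%, the median distance to another endogenous peak from 374 to 415 kb and the share with one within 10 kb from 5.14 to 6.16%.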
